A study of Homo sapiens with 16 samples.

Results

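Replication origin and fork genes are those whose products license origins, unwind DNA and copy it: the MCM2 to MCM7 helicase ring, MCM8 and MCM10, the origin recognition complex, the licensing factors, the GINS complex with CDC45, the DDK kinase, the replicative polymerases, the sliding clamp and its loader, the enzymes that finish the lagging strand, and replication protein A (RPA). They were chosen by symbol from a list of 44 genes, and all 44 were found among the 20271 genes of the deposited table. No measured value entered the choice of a gene by the rule. All samples are HCT116 cells, an established colon cancer line labelled as carrying wild-type p53, transfected with siRNA for 3 days. The 8 groups were p53+iASPP siRNA with nutlin and without it, iASPP siRNA with nutlin and without it, p53 siRNA with nutlin and without it, and control (CTR) siRNA with nutlin and without it. Groups with nutlin received Nutlin-3 for 0.5 days more, at a dose not given in the sources used here, and the other groups are labelled as untreated, with no vehicle named. Each group had 2 libraries, 16 in all, made from purified mRNA. Nothing in the labels says that replicates came from separate cultures, so a p-value here speaks only to the scatter among these libraries, which may be technical. The series was designed to read the transcriptional activity of p53 under these treatments.

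Before S phase, the origin recognition complex binds DNA and, with CDC6 and CDT1, loads the MCM2 to MCM7 ring, while geminin (GMNN) blocks CDT1 afterwards so that an origin is used only once. The DDK kinase (CDC7 with DBF4), CDC45 and GINS then turn the ring into the active helicase. Polymerase alpha-primase starts each strand, polymerases epsilon and delta extend it on the PCNA clamp loaded by the RFC complex, FEN1 and LIG1 join the lagging-strand fragments, and RPA coats the single strands. Many of these genes are transcribed under E2F factors in late G1 and S phase. Nutlin-3 keeps MDM2 from binding p53. Stabilised p53 induces CDKN1A (p21), an inhibitor of cyclin-dependent kinases, which keeps RB family proteins bound to E2F. iASPP, encoded by PPP1R13L, is an inhibitor of p53.

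All 44 genes averaged at least 1 FPKM over the libraries and so were among the 10662 that were tested. PPP1R13L, the target of the iASPP siRNA, was between 0.279 and 2.45 FPKM in the 8 libraries with that siRNA, against 6.88 to 18.9 FPKM in the 8 without it. CDKN1A, the readout of p53 activity used here, was at 83.1 and 141 FPKM in p53+iASPP siRNA+nutlin, 40.3 and 37.9 in p53+iASPP siRNA, 1656 and 776 in iASPP siRNA+nutlin, 411 and 406 in iASPP siRNA, 47.4 and 107 in p53 siRNA+nutlin, 14.5 and 15.6 in p53 siRNA, 1510 and 1577 in CTR siRNA+nutlin, and 70.7 and 72.7 in CTR siRNA. Epithelial markers summed to 3028 to 5663 FPKM in each library, against at most 1.86 for fibroblast, 3.70 for immune and 0.319 for endothelial markers, with the T cell gene CD3E at 0 in every library. Replicate 2 was read 4.27 to 6.5 times as deeply as replicate 1, as judged from the step size of low values. The search covered only ratios with replicate 2 at least as deep, so the direction was assumed. The deeper library of a pair has the smaller counting error. In 5 groups the replicates were close, with a median absolute log2 difference of 0.0514 to 0.0668 among genes at 100 FPKM or above. Most of the 44 genes lie below that level, and single members of these close pairs differed by far more. On the log2(FPKM + 1) scale, replicate 2 minus replicate 1 ran from -0.98 in CTR siRNA+nutlin to 1.68 in p53 siRNA. In p53 siRNA+nutlin, iASPP siRNA+nutlin and p53+iASPP siRNA+nutlin the same median was 0.178 to 0.259, so that values of these 3 groups are less certain. The fit gave each gene a single spread shared by all 8 groups, so the standard errors and p-values below do not carry this. They may be too small for comparisons with these 3 groups and too large for comparisons among the other 5. With each close pair averaged to 1 sample, which leaves 3 residual degrees of freedom, no replication gene passed in any comparison below. Almost no gene passed over all genes tested either, so this fit cannot tell the replication genes from the rest. Their median for nutlin in CTR siRNA cells was -2.35 in that fit. Median-of-ratios scaling moved the median of all genes for nutlin in CTR siRNA cells by 0.21 on the log2 scale, and the share of rises among all called genes to 48.1%, against 21.9% without it. That share became 51.6% against 76.5% for p53 siRNA+nutlin over CTR siRNA+nutlin, and 45.7% against 35% for iASPP siRNA over CTR siRNA. It became 58.7% against 69.1% for p53+iASPP siRNA+nutlin over iASPP siRNA+nutlin, 32.1% against 65.9% for iASPP siRNA+nutlin over CTR siRNA+nutlin, and 31.2% against 43.3% for p53+iASPP siRNA over iASPP siRNA. For the nutlin by p53 siRNA and the nutlin by iASPP siRNA interactions it became 59.2% against 78.5% and 50% against 80.7%. In all of these the members' median kept its sign.

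In cells with CTR siRNA, nutlin lowered nearly all replication genes, in every functional class. Of the 44 genes, 42 fell and 0 rose, where falls made up 21.0% and rises 5.87% of all 10662 genes tested, and 39 fell by at least 2-fold on the log2(FPKM + 1) scale (limma, adjusted p under 0.05). The median log2 difference was -2.35 over the 44 genes and -0.20 over all genes tested. In 43 genes both nutlin libraries lay below both others, a pattern of 51.6% of all genes. As a level, the median gene stood at 12.6% of its CTR siRNA mean, 32 genes were below 25% and 39 below 50%. In RNA from whole cultures, fewer cells in S phase and less mRNA per cell cannot be told apart. The 2 genes that did not pass were PCNA and ORC4. Leaving out single libraries gave 39 to 43 calls.

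**Figure D1:**
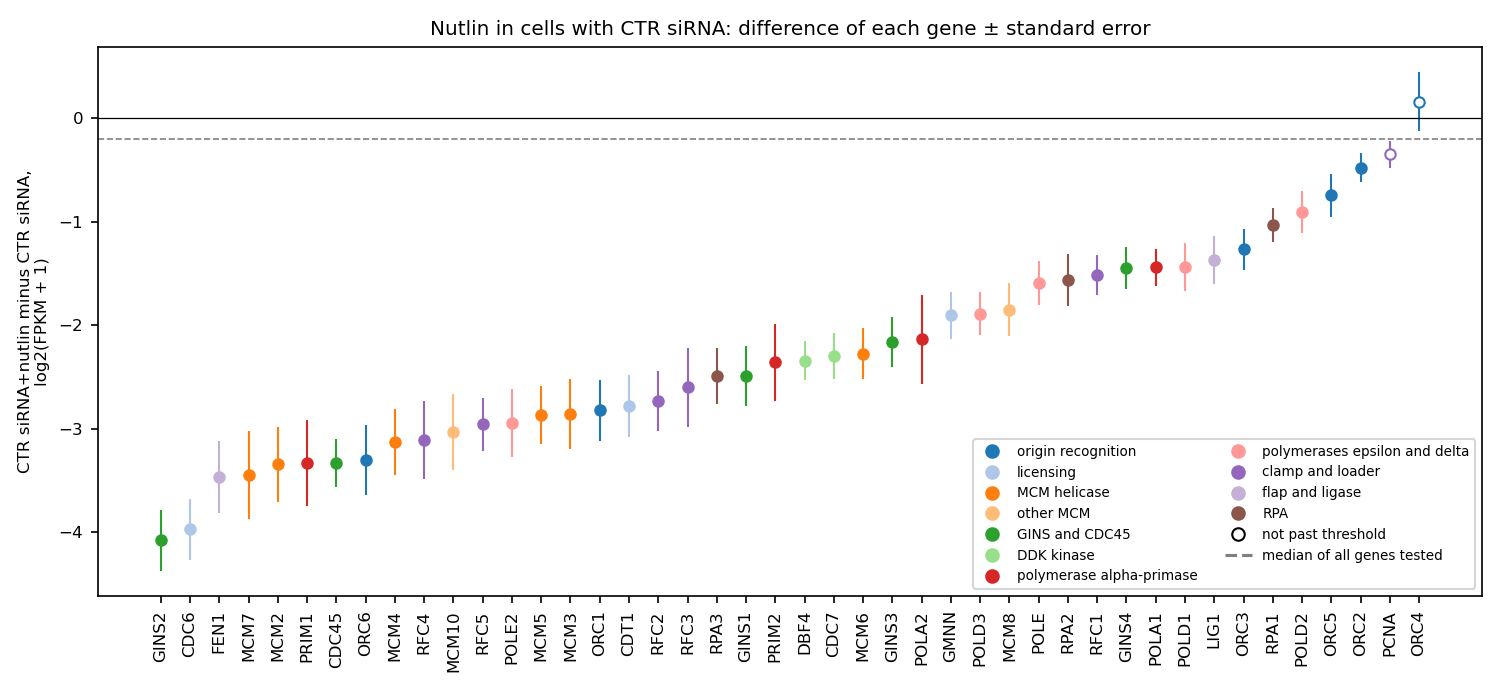
Vertical axis: log2 difference (CTR siRNA+nutlin minus CTR siRNA, on log2(FPKM + 1)) of each of the 44 replication genes, ordered from lowest to highest, with bars for the standard error, colour for the role, open points for genes not past the threshold and a dashed line at the median of all genes tested. Values run from -4.08 (GINS2) to 0.16 (ORC4), and PCNA and ORC4 are the open points.

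The origin recognition complex, which marks origins, was the class with the widest spread: 5 of 6 subunits fell, with a median log2 difference of -1.01. ORC6 (chr16:46689643-46698394, plus strand, GRCh38) was at 1.30 and 0.366 FPKM in CTR siRNA+nutlin, against 14.6 and 18.4 FPKM in CTR siRNA. The groups did not overlap, and ORC6 fell by 3.30 ± 0.34 on the log2 scale (SE; limma, adjusted p = 5.74e-05). ORC1, the large ATP-binding subunit, averaged 0.223 ± 0.00793 FPKM in CTR siRNA+nutlin and 7.65 ± 0.370 FPKM in CTR siRNA (SD, n = 2 each), 34.3-fold lower as a ratio of mean levels. ORC2 and ORC5 fell by less, by 0.48 ± 0.14 (adjusted p = 0.0242) and 0.74 ± 0.21 (adjusted p = 0.0213). Under median-of-ratios scaling both lost their call, at adjusted p = 0.130 and 0.0596. ORC4 (chr2:147930397-148021604, minus strand) was at 3.51 and 4.79 FPKM in CTR siRNA+nutlin, against 2.47 and 5.04 FPKM in CTR siRNA. These libraries overlapped, with a log2 difference of 0.16 ± 0.29 (adjusted p = 0.715). The ORC4 difference was -0.24 without CTR siRNA replicate 1 and -0.02 without CTR siRNA+nutlin replicate 2, so it has no stable sign.

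All 3 licensing genes fell. CDC6 (chr17:40287633-40304657, plus strand), the ATPase that loads the ring with CDT1, was at 0.894 and 1.17 FPKM in CTR siRNA+nutlin, against 30.6 and 31.1 FPKM in CTR siRNA. Its log2 difference of -3.97 ± 0.30 was the second lowest of the 44 (adjusted p = 1.21e-05). CDT1 fell by 2.78 ± 0.30 (adjusted p = 8.11e-05). Geminin (GMNN), the inhibitor of CDT1, was at 17.9 and 21.6 FPKM in CTR siRNA+nutlin, against 76.0 and 76.9 FPKM in CTR siRNA. It fell by 1.90 ± 0.23 (adjusted p = 0.000145), the smallest fall of the class, and the ratio of the highest to the lowest level in this class was 19.2 in CTR siRNA+nutlin and 4.06 in CTR siRNA.

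The helicase ring fell as a whole. MCM7 (chr7:100092728-100101940, minus strand) was at 7.96 and 7.87 FPKM in CTR siRNA+nutlin, against 96.9 and 95.7 FPKM in CTR siRNA. This was the largest fall of the 6 ring subunits, -3.45 ± 0.42 on the log2 scale (adjusted p = 0.000166). MCM6 was at 5.36 and 5.15 FPKM in CTR siRNA+nutlin, against 30.4 and 28.1 FPKM in CTR siRNA, and had the smallest fall, -2.27 ± 0.24 (adjusted p = 7.60e-05). Levels of the 6 subunits lay between 3.04 (MCM2) and 7.91 FPKM (MCM7) in CTR siRNA+nutlin, a 2.60-fold range, and between 29.3 (MCM6) and 96.3 FPKM (MCM7) in CTR siRNA, a 3.29-fold range. MCM10, which acts as the ring becomes the active helicase, was at 0.266 and 0.0914 FPKM in CTR siRNA+nutlin, against 9.20 and 8.08 FPKM in CTR siRNA. MCM8, of a separate helicase with roles in recombination, was at 0.438 and 0.269 FPKM in CTR siRNA+nutlin, against 3.95 and 3.77 FPKM in CTR siRNA. Both fell, by 3.03 ± 0.37 (adjusted p = 0.000158) and 1.85 ± 0.26 (adjusted p = 0.000406).

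The furthest fall was among the genes of helicase activation. GINS2 (chr16:85676198-85690073, minus strand), a GINS subunit, was at 0.119 and 0.295 FPKM in CTR siRNA+nutlin, against 20.8 and 17.9 FPKM in CTR siRNA. It had the lowest log2 difference of the 44 genes, -4.08 ± 0.29 (adjusted p = 1.06e-05). As a ratio of mean levels it was 93.5-fold lower, which the log2(FPKM + 1) scale understates because the nutlin levels are below 1 FPKM. CDC45, the helicase cofactor, fell by 3.33 ± 0.23 (adjusted p = 9.70e-06). The smallest fall in the class was GINS4, at 0.909 and 0.868 FPKM in CTR siRNA+nutlin, against 3.62 and 4.74 FPKM in CTR siRNA (-1.45 ± 0.21, adjusted p = 0.000459). Of the DDK kinase, the catalytic subunit CDC7 was at 0.572 and 0.446 FPKM in CTR siRNA+nutlin, against 5.94 and 6.92 FPKM in CTR siRNA. Its activator DBF4 was at 3.06 and 3.71 FPKM in CTR siRNA+nutlin, against 22.0 and 20.4 FPKM in CTR siRNA. Both kinase genes fell by similar amounts on the log2(FPKM + 1) scale, 2.30 ± 0.22 and 2.34 ± 0.19 (adjusted p = 3.90e-05 and 1.89e-05). As levels they differed, with CDC7 at 7.91% of its CTR siRNA mean in CTR siRNA+nutlin and DBF4 at 15.97%. The log2 scale understates the fall of CDC7, whose nutlin levels are also below 1 FPKM.

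All 9 polymerase genes fell. PRIM1 (chr12:56731596-56752373, minus strand), the primase that makes the RNA primer, was at 7.14 and 3.13 FPKM in CTR siRNA+nutlin, against 56.6 and 58.1 FPKM in CTR siRNA (-3.33 ± 0.41, adjusted p = 0.000189). POLA1, the catalytic subunit of polymerase alpha, was at 1.08 and 0.865 FPKM in CTR siRNA+nutlin, against 4.39 and 4.30 FPKM in CTR siRNA (-1.44 ± 0.18, adjusted p = 0.000165). Primase thus had the larger log2 difference of the pair, though POLA1 starts from a level near the pseudocount of 1. POLE2, an accessory subunit of polymerase epsilon, was at 1.68 and 0.625 FPKM in CTR siRNA+nutlin, against 16.6 and 13.7 FPKM in CTR siRNA (-2.94 ± 0.33, adjusted p = 9.63e-05). POLD2, an accessory subunit of polymerase delta, was at 69.0 and 79.2 FPKM in CTR siRNA+nutlin, against 146 and 134 FPKM in CTR siRNA. It fell by only 0.91 ± 0.20 (adjusted p = 0.00733, and 0.0510 under median-of-ratios scaling), and remained the most abundant polymerase gene in both groups.

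The clamp loader fell and the clamp did not pass the threshold, though the difference between them was not tested. RFC4 (chr3:186789880-186807058, minus strand), a loader subunit, was at 7.76 and 8.29 FPKM in CTR siRNA+nutlin, against 73.1 and 80.5 FPKM in CTR siRNA (-3.11 ± 0.38, adjusted p = 0.000159), and all 5 RFC genes fell. PCNA (chr20:5114953-5126626, minus strand), the clamp, was at 218 and 218 FPKM in CTR siRNA+nutlin, against 281 and 275 FPKM in CTR siRNA. The groups did not overlap, but the log2 difference of -0.35 ± 0.13 missed the threshold (adjusted p = 0.0726). The value was -0.10 under median-of-ratios scaling (adjusted p = 0.637), while PCNA missed the threshold in 12 of 16 fits that each left out 1 library and passed in the other 4. PCNA was 86.2 times the level of the lowest loader gene in CTR siRNA+nutlin and 17.6 times in CTR siRNA. FEN1 (chr11:61792637-61797244, plus strand), the flap endonuclease, was at 4.22 and 4.4 FPKM in CTR siRNA+nutlin, against 55.3 and 60.0 FPKM in CTR siRNA (-3.47 ± 0.35, adjusted p = 4.97e-05). LIG1, the ligase that acts after it, was at 4.87 and 4.81 FPKM in CTR siRNA+nutlin, against 12.4 and 15.9 FPKM in CTR siRNA (-1.37 ± 0.23, adjusted p = 0.00137). FEN1 and LIG1 were at like levels in CTR siRNA+nutlin, while FEN1 was 4.08 times LIG1 in CTR siRNA. RPA3 (chr7:7636518-7718607, minus strand), the small RPA subunit, was at 12.4 and 17.5 FPKM in CTR siRNA+nutlin, against 111 and 68.7 FPKM in CTR siRNA (-2.49 ± 0.27, adjusted p = 8.13e-05). RPA1, the large subunit, was at 10.4 and 10.4 FPKM in CTR siRNA+nutlin, against 21.4 and 23.0 FPKM in CTR siRNA (-1.03 ± 0.17, adjusted p = 0.00102).

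The members not described above also fell, each with limma's adjusted p at 0.00415 or below. In the ring these were MCM2 (-3.34 ± 0.36), MCM4 (-3.13 ± 0.32), MCM5 (-2.87 ± 0.28) and MCM3 (-2.86 ± 0.34). GINS1 and GINS3, the other GINS subunits, fell by 2.49 ± 0.29 and 2.16 ± 0.24. Among the polymerases, the primase subunit PRIM2 fell by 2.36 ± 0.37, POLA2 of polymerase alpha by 2.13 ± 0.43, and POLD3 and POLD1 of polymerase delta by 1.89 ± 0.21 and 1.44 ± 0.24. POLE, the catalytic subunit of polymerase epsilon, fell by 1.59 ± 0.21. In the clamp loader, RFC5, RFC2 and RFC3 fell by 2.96 ± 0.25, 2.73 ± 0.29 and 2.60 ± 0.38, and the large subunit RFC1 by 1.51 ± 0.19. RPA2, the middle subunit of RPA, fell by 1.56 ± 0.25, and ORC3 by 1.27 ± 0.20.

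**Figure D2:**
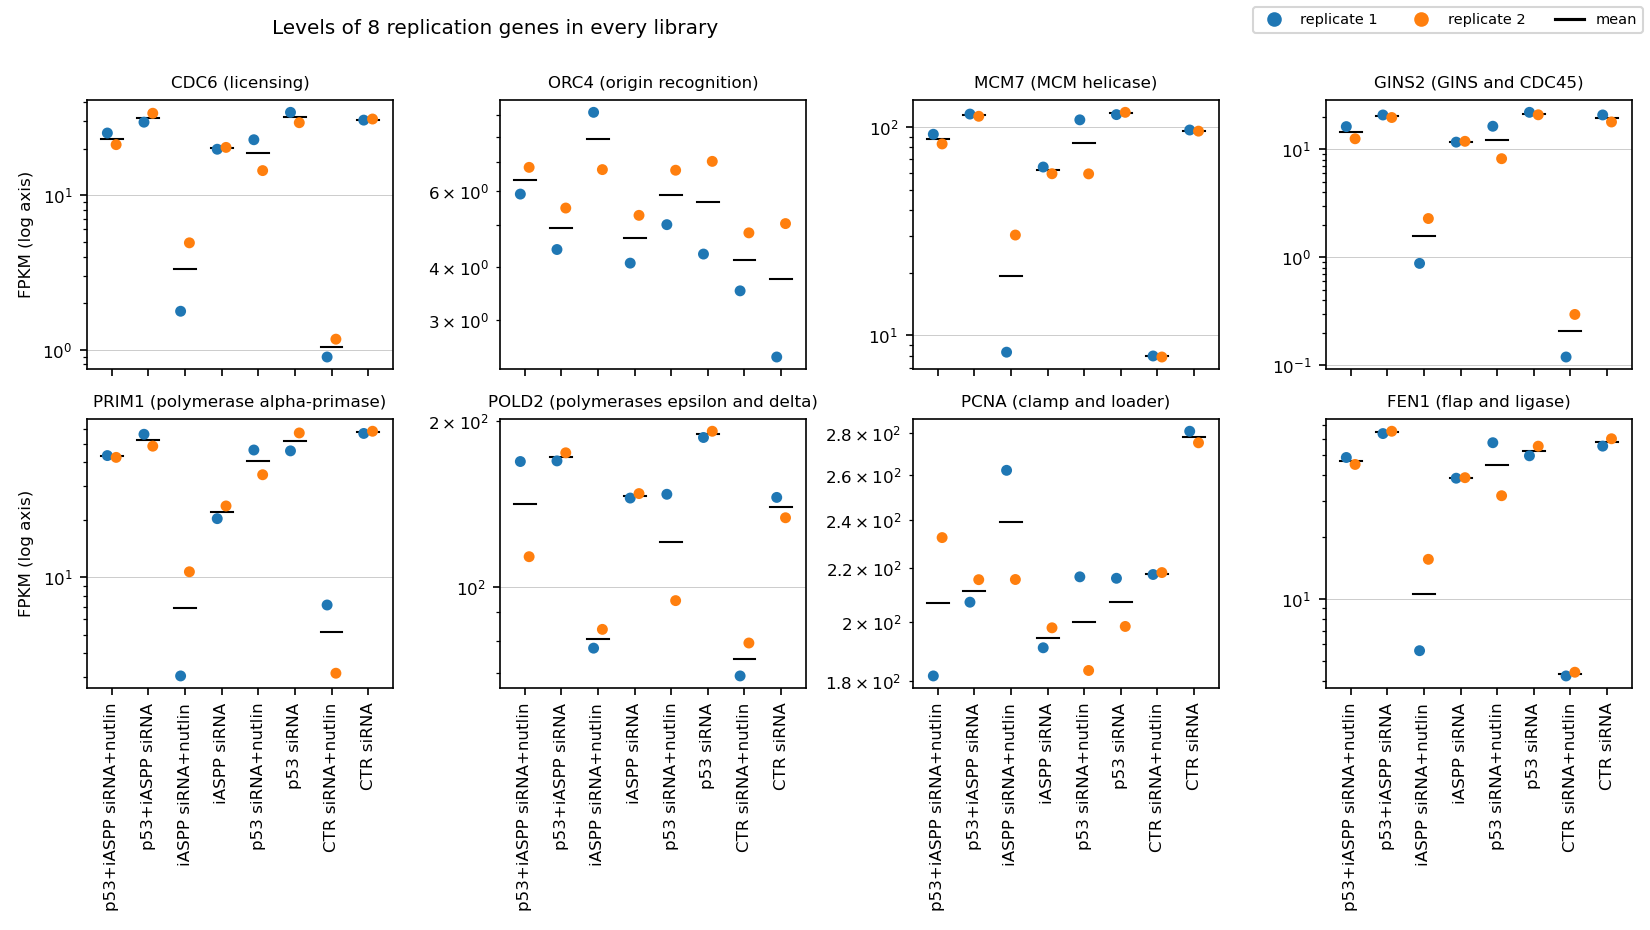
FPKM on a log axis in each of the 16 libraries for 8 replication genes, with groups along the horizontal axis, 1 point per library coloured by replicate, a line at the group mean and a separate axis range in each panel. GINS2 is at 0.119 and 0.295 FPKM in CTR siRNA+nutlin and at 8.19 FPKM or above in the groups without nutlin and with p53 siRNA, while PCNA stays between 182 and 281 FPKM in all 16 libraries.

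Some genes share exons with neighbours in GENCODE release 29, and the sources used here do not say whether counting used strand. POLA2 shares 35.1% of its exon bases with AP000944.2 on the same strand, and PRIM1 shares 14.9% with AC117378.1. Antisense genes cover 22.7% of MCM2 and 21.2% of GINS4, AP4M1 covers 8.94% of MCM7, and ACVR2A covers 4.82% of ORC4. PCNA and RPA2 have 3 named pseudogenes each, and DBF4, POLD2, RFC3, RFC5 and FEN1 have 1 each. Reads of these copies could be split or shared by the counting, so the values of these genes are less certain.

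Promoters are shown for 4 genes that span the response: GINS2 and FEN1, which fell strongly, and PCNA and ORC4, which did not pass. Each window runs from 250 bases before to 50 bases after a RefSeq start (GRCh38.p14), 5′ to 3′ on the strand of the gene, and capitals mark an E2F-like motif. The letters searched on both strands were TTTCCCGC, TTTGGCGC, TTTCGCGC and TTTGCCGC, which can overlap each other on opposite strands. The windows are chr16:85688905-85689204 (minus strand) for GINS2, chr20:5126573-5126872 (minus strand, 1 of 2 listed starts) for PCNA, chr11:61792661-61792960 (plus strand) for FEN1 and chr2:148021502-148021801 (minus strand, 1 of 2 listed starts) for ORC4.
GINS2: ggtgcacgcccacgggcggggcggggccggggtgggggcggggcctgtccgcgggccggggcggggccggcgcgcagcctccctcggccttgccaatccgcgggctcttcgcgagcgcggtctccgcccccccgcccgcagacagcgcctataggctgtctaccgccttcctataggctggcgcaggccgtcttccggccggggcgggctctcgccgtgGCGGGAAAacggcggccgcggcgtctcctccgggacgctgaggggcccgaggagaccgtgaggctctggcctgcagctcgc
PCNA: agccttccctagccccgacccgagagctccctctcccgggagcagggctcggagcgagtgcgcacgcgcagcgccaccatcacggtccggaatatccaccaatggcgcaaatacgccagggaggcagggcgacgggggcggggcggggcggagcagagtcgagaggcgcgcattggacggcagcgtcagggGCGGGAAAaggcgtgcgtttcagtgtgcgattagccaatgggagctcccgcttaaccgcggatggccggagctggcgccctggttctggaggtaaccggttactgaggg
FEN1: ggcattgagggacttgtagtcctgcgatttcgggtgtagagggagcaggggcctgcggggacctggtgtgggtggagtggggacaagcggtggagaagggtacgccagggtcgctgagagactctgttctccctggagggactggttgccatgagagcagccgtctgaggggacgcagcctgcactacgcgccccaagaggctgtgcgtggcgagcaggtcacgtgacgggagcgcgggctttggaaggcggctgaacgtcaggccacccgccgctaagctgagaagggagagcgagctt
ORC4: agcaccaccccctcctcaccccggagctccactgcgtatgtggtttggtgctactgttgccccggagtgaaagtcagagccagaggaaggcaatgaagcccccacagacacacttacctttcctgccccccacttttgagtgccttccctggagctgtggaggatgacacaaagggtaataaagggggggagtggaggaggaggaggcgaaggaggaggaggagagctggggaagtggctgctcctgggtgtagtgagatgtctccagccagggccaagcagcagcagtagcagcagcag
GINS2 and PCNA carry the same letters, TTTCCCGC on the opposite strand, at positions -31 and -59 from the start base, which is counted as 0. The FEN1 and ORC4 windows hold none of the letters searched. Thus GINS2, with the lowest log2 difference, and PCNA, at -0.35 and not past the threshold, both had a match, and FEN1, which was 13.4-fold lower as a ratio of levels, had none. The GINS2 and FEN1 windows lie inside the GENCODE bounds of these genes. Sequence upstream of those GENCODE gene starts was therefore not searched in these windows.

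RefSeq promoters were matched by symbol for 38 of the 44 genes, all but RPA2, MCM4, GINS4, MCM5, RPA3 and POLD3. Of the 38, 20 (52.6%) held an E2F-like motif, against 3.99% of 27305 genes with a promoter in the table and 6.86% of the 8211 tested genes that were matched. Counted by promoter, 41.7% of the 48 member windows held one, against 3.32% of 35116. Within the 38, genes with a match had a median nutlin difference of -2.29 on the log2 scale (from -4.08 to -0.35), and the 18 without had -2.55 (from -3.47 to 0.16). A CHR-like element, the letters TTTGAA or TTCGAA, was found in MCM6 and DBF4 only, 5.26% of the 38 genes, against 14.9% of matched tested genes. A match describes letters in a window and is not a bound site.

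With p53 siRNA, nutlin left replication genes much higher than it did with CTR siRNA. In p53 siRNA+nutlin against CTR siRNA+nutlin, 40 of the 44 genes rose and 0 fell, where 17.2% of all genes rose and 5.29% fell, and 37 rose by at least 2-fold. Both p53 siRNA+nutlin libraries were the higher ones in 43 genes, against 46.5% of all genes. The median log2 difference was 2.07 over the 44 genes and 0.19 over all genes tested. GINS2 was at 16.4 and 8.19 FPKM in p53 siRNA+nutlin, against 0.119 and 0.295 FPKM in CTR siRNA+nutlin, a log2 difference of 3.39 ± 0.29 (limma, adjusted p = 4.32e-05). ORC6 was at 19.6 and 13.4 FPKM in p53 siRNA+nutlin, against 1.30 and 0.366 FPKM in CTR siRNA+nutlin (3.28 ± 0.34, adjusted p = 9.74e-05). MCM7 was at 108 and 59.7 FPKM in p53 siRNA+nutlin, against 7.96 and 7.87 FPKM in CTR siRNA+nutlin (3.19 ± 0.42, adjusted p = 0.000427). In each of the 3 genes the lower library with p53 siRNA was several times the higher one with CTR siRNA. CDC6, FEN1 and RFC4 rose by 3.24 ± 0.30, 3.04 ± 0.35 and 2.87 ± 0.38. All genes of the helicase ring, GINS and CDC45, DDK, the polymerases, RPA and licensing rose. ORC2, ORC4, ORC5 and PCNA did not pass, with log2 differences of 0.24 ± 0.14, 0.41 ± 0.29, 0.47 ± 0.21 and -0.13 ± 0.13 (adjusted p = 0.240, 0.330, 0.126 and 0.521). Single libraries left out gave 37 to 40 calls.

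Within p53 siRNA cells, no replication gene passed the threshold for nutlin. Of the 44, 0 rose and 0 fell by limma, where 0.141% of all genes rose and 0.0844% fell. An unadjusted p under 0.05 was found in 12 of them, all lower with nutlin, and in 1607 of all 10662 genes. The median log2 difference was -0.36, against -0.02 over all genes, and 40 of the 44 values were below 0. MCM5, a ring subunit, had the lowest, -0.86 ± 0.28 (adjusted p = 0.201), at 47.5 and 23.2 FPKM in p53 siRNA+nutlin, against 55.0 and 67.6 FPKM in p53 siRNA. CDC6 had -0.78 ± 0.30 (adjusted p = 0.262). These negative values move with replicate 2 of p53 siRNA+nutlin, where 40 of 44 genes were lower than in replicate 1 (median log2 difference between the libraries -0.64, against -0.04 over all genes). In that library CDKN1A was at 107 FPKM, against 47.4 in replicate 1, and MDM2 was at 28.2 FPKM, against 12.3. The part of this gap in the result was not tested. Without p53 siRNA+nutlin replicate 1 the median was -0.69, and without replicate 2 of all 3 spread pairs it was -0.08. In both fits more of all genes tested passed than in the main fit.

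The nutlin effect itself differed between p53 siRNA and CTR siRNA cells. The interaction (nutlin difference in p53 siRNA cells minus that in CTR siRNA cells) was positive and past the threshold in 35 of the 44 genes and negative in 0, against 7.65% and 2.10% of all genes, with a median of 2.02 over the 44 and 0.20 over all genes. GINS2, CDC6 and FEN1 had the largest values, 3.25 ± 0.41, 3.20 ± 0.42 and 3.18 ± 0.49 (adjusted p = 0.00225, 0.00225 and 0.00378). ORC6, CDC45 and PRIM1 followed at 3.14 ± 0.48, 3.03 ± 0.33 and 2.98 ± 0.59 (adjusted p = 0.00347, 0.00122 and 0.0109). Not past the threshold were ORC2, ORC4, ORC5, POLA2, POLE, POLD1, POLD2, PCNA and LIG1. Among these, POLD2 had 0.23 ± 0.29 (adjusted p = 0.646), PCNA 0.30 ± 0.19 (adjusted p = 0.333) and ORC4 -0.10 ± 0.41 (adjusted p = 0.908). Fewer of the 44, and of all genes tested, passed without CTR siRNA replicate 1 or without p53 siRNA replicate 1. The median over the 44 was 1.97 and 1.99 in these fits.

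**Figure D3:**
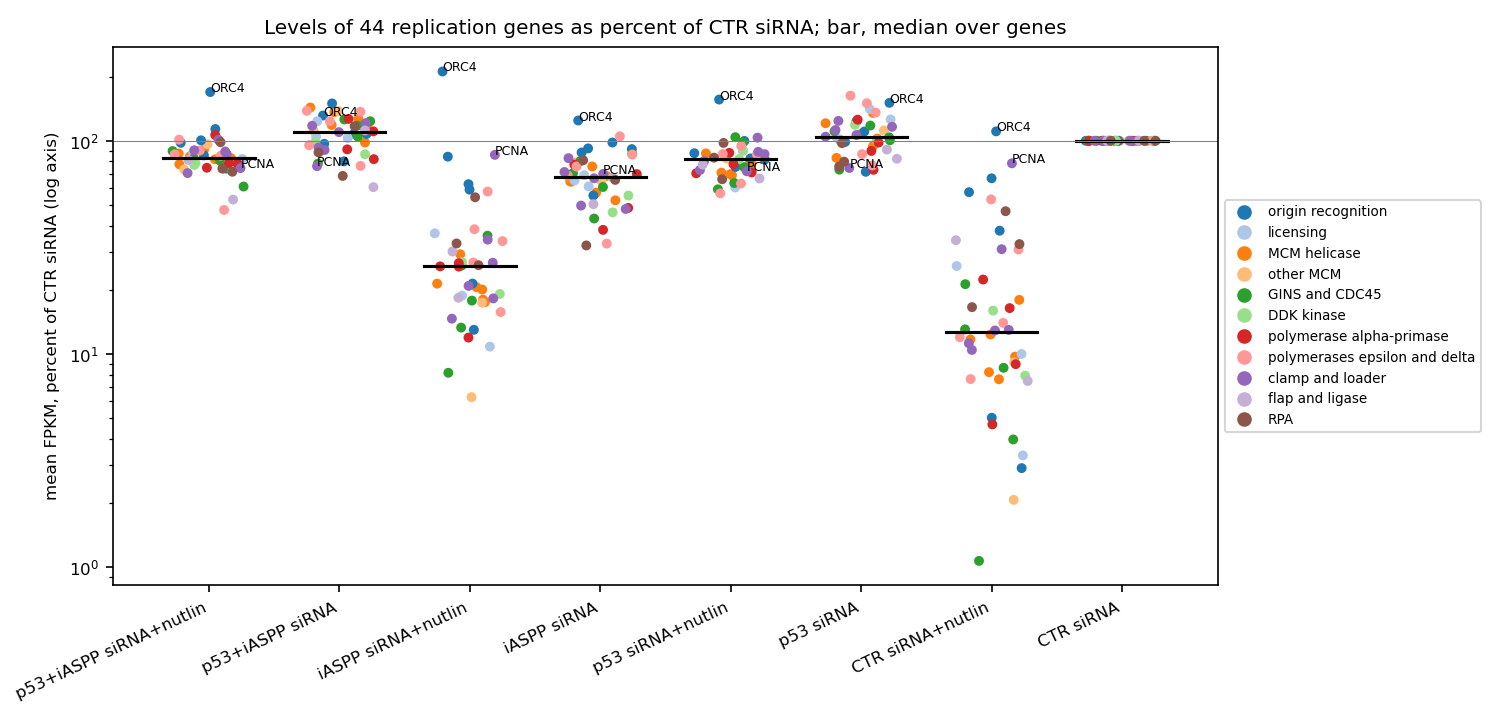
Each point is the mean level of 1 replication gene (2 libraries) as a percent of its CTR siRNA mean, on a log axis, for the 8 groups, coloured by role, with a bar at the median of the 44 genes and CTR siRNA at 100 by construction. The median is 82.8% in p53+iASPP siRNA+nutlin, 25.7% in iASPP siRNA+nutlin, 81.8% in p53 siRNA+nutlin and 12.6% in CTR siRNA+nutlin.

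Without nutlin, iASPP siRNA lowered a part of these genes. Of the 44, 9 fell and 0 rose against CTR siRNA, where 5.11% of all genes fell and 2.75% rose. An unadjusted p under 0.05 was reached by 19 of the 44 and by 2833 of all 10662 genes. Both iASPP siRNA libraries were below both CTR siRNA libraries in 38 genes, a pattern that 42.3% of all genes showed. The median log2 difference was -0.54 over the 44 genes and -0.09 over all genes, and the median gene stood at 67.8% of its CTR siRNA level. RPA3 was at 26.8 and 31.3 FPKM in iASPP siRNA, against 111 and 68.7 FPKM in CTR siRNA (-1.56 ± 0.27, adjusted p = 0.0108). POLE2 (chr14:49643555-49688422, minus strand) was at 4.48 and 5.49 FPKM in iASPP siRNA, against 16.6 and 13.7 FPKM in CTR siRNA (-1.43 ± 0.33, adjusted p = 0.0269). CDC45 was at 7.69 and 5.34 FPKM in iASPP siRNA, against 17.2 and 13.0 FPKM in CTR siRNA (-1.10 ± 0.23, adjusted p = 0.0199). None of these 3 overlapped between groups, but the CTR siRNA libraries of RPA3 were themselves far apart. Both DDK genes fell, CDC7 by 0.91 ± 0.22 and DBF4 by 0.81 ± 0.19 (adjusted p = 0.0318 and 0.0301). The others were RFC5 (-0.99 ± 0.25), LIG1 (-0.90 ± 0.23), MCM6 (-0.88 ± 0.24) and PCNA (-0.51 ± 0.13), with adjusted p of 0.0403, 0.0406, 0.0497 and 0.0406. Under median-of-ratios scaling 7 genes passed, and MCM6 (-0.79, adjusted p = 0.0595) and PCNA (-0.42, adjusted p = 0.0871) did not. PCNA was at 191 and 198 FPKM in iASPP siRNA, against 281 and 275 FPKM in CTR siRNA, and it missed the threshold in 10 of 16 fits that each left out 1 library. PRIM1 had a larger difference than most of them, -1.35 ± 0.41, and missed the threshold (adjusted p = 0.0666). No gene of the origin recognition, licensing and polymerase alpha-primase classes passed, nor did MCM8 and MCM10.

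This count of 9 depended on single libraries. It was 0 without CTR siRNA replicate 1, iASPP siRNA replicate 1 or iASPP siRNA replicate 2, and 1 without CTR siRNA replicate 2. Leaving out either p53+iASPP siRNA library gave 4, either p53 siRNA library or either CTR siRNA+nutlin library gave 5, and either iASPP siRNA+nutlin library gave 14, although those libraries enter only the shared spread. In each of these fits the calls over all genes tested moved the same way. Without replicate 2 of all 3 spread pairs the median was -0.54. That fit gave more calls than the main fit, among these genes and among all genes tested. CDKN1A was higher where the replication genes were lower, at 411 and 406 FPKM in iASPP siRNA, against 70.7 and 72.7 FPKM in CTR siRNA, and its part was not tested.

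When p53 siRNA was added to iASPP siRNA, replication genes read higher, without any passing the threshold. In p53+iASPP siRNA against iASPP siRNA, 0 of 44 genes passed (limma), where 0.422% of all genes rose and 0.553% fell. However, 24 genes, all higher, had an unadjusted p under 0.05, as did 1892 of all 10662 genes in either direction. In 40 genes both p53+iASPP siRNA libraries were above both iASPP siRNA libraries, against 41.1% of all genes. The median log2 difference was 0.72 over the 44 genes and 0.08 over all genes. RFC5, a loader subunit, had the lowest adjusted p, 0.0651, at 57.8 and 57.5 FPKM in p53+iASPP siRNA, against 23.2 and 28.9 FPKM in iASPP siRNA (1.12 ± 0.25). PRIM1 was at 56.0 and 48.5 FPKM in p53+iASPP siRNA, against 20.2 and 23.6 FPKM in iASPP siRNA (1.22 ± 0.41, adjusted p = 0.162). The median gene stood at 110.3% of CTR siRNA in p53+iASPP siRNA and 67.8% in iASPP siRNA. The count was 2 and 3 without p53 siRNA+nutlin replicate 1 or 2, and 14 and 15 without iASPP siRNA+nutlin replicate 1 or 2. Without replicate 2 of all 3 spread pairs it was higher still. In each of these fits more of all genes tested passed than in the main fit.

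By itself, p53 siRNA changed none of the 44 genes at the threshold. Against CTR siRNA, 0 passed in limma, where 0% of all genes rose and 0.0375% fell. The median was 0.05, against -0.00 over all genes. An unadjusted p under 0.05 was found in 4, of which 2 were higher and 2 lower with p53 siRNA, and in 1379 of all 10662 genes. POLE, the catalytic subunit of polymerase epsilon, was at 5.30 and 4.92 FPKM in p53 siRNA, against 3.16 and 3.11 FPKM in CTR siRNA (0.56 ± 0.21, adjusted p = 0.314). PCNA was at 216 and 198 FPKM in p53 siRNA, against 281 and 275 FPKM in CTR siRNA (-0.42 ± 0.13, adjusted p = 0.240). POLE read higher and PCNA lower with p53 siRNA, and in neither did the libraries of the groups overlap. In p53+iASPP siRNA against p53 siRNA, 0 of 44 passed, where 0.525% of all genes rose and 0.422% fell. An unadjusted p under 0.05 was found in 1 of the 44 and in 1764 of all 10662 genes. The median was 0.03 (-0.016 without p53 siRNA replicate 1). The p53 by iASPP interaction without nutlin passed in 0 of 44 genes, where it was positive in 0.0188% and negative in 0.00938% of all genes. Its median was 0.54 over the 44 genes and 0.10 over all genes. Among the 44, 12 genes, all positive, had an unadjusted p under 0.05, as did 1556 of all 10662 genes in either direction. More genes passed for this interaction without replicate 2 of all 3 spread pairs, or without either iASPP siRNA+nutlin library. This held among the 44 and among all genes tested.

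Nutlin also lowered replication genes in iASPP siRNA cells. Of the 44 genes 30 fell and 0 rose, where 3.90% of all genes fell and 1.30% rose, with a median of -1.03 over the 44 and -0.05 over all genes. Both nutlin libraries lay below both others in 41 genes, against 28.1% of all genes. All 6 ring genes, MCM8 and MCM10, GINS and CDC45, both DDK genes and the 5 RFC genes fell. CDC6 was at 1.77 and 4.91 FPKM in iASPP siRNA+nutlin, against 19.8 and 20.4 FPKM in iASPP siRNA (-2.38 ± 0.30, adjusted p = 0.00763). MCM2 was at 3.50 and 10.5 FPKM in iASPP siRNA+nutlin, against 28.8 and 25.9 FPKM in iASPP siRNA (-1.98 ± 0.36, adjusted p = 0.0150). FEN1 was at 5.60 and 15.6 FPKM in iASPP siRNA+nutlin, against 38.6 and 38.8 FPKM in iASPP siRNA (-1.93 ± 0.35, adjusted p = 0.0146). In each, both nutlin libraries lay below both others, but replicate 1 was much lower than replicate 2. GINS2, MCM10 and MCM7 fell by 2.36 ± 0.29, 2.13 ± 0.37 and 1.88 ± 0.42 (adjusted p = 0.00763, 0.0126 and 0.0299). ORC4 had 0.65 ± 0.29, PCNA 0.29 ± 0.13, RPA3 -0.33 ± 0.27 and POLE2 -0.84 ± 0.33, none past the threshold (adjusted p = 0.214, 0.227, 0.514 and 0.169). Far fewer of the 44, and of all genes tested, passed without iASPP siRNA replicate 1, iASPP siRNA replicate 2 or iASPP siRNA+nutlin replicate 1. The median over the 44 was -1.10, -1.11 and -0.94 in these fits, in the same order.

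The iASPP siRNA+nutlin libraries differed in nearly all of these genes. Replicate 2 exceeded replicate 1 in 41 of the 44, by a median of 0.68 on the log2 scale, against 0.16 over all genes. CDKN1A was at 776 FPKM in replicate 2, against 1656 in replicate 1, and MDM2 at 121 against 150 FPKM. In p53+iASPP siRNA+nutlin 32 genes were lower in replicate 2 (median -0.12), and in the 5 close pairs the medians lay between -0.02 and 0.08. What sets the spread pairs apart was not tested.

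**Figure D4:**
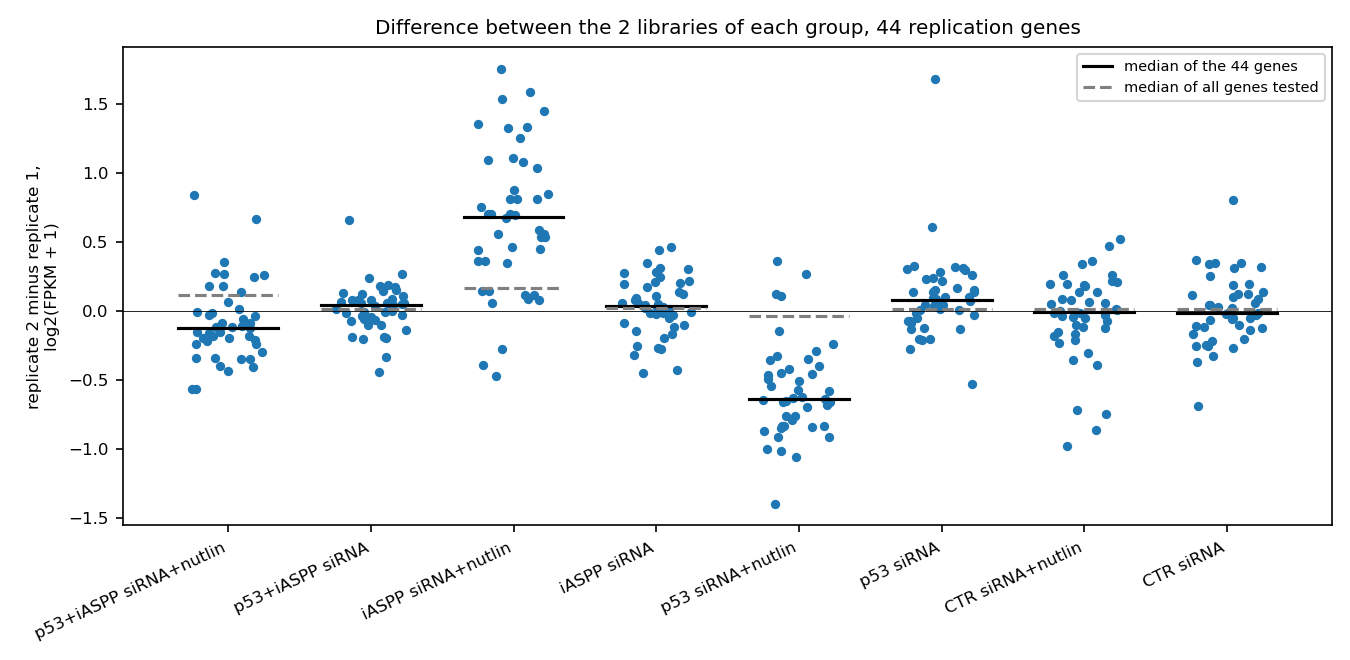
Log2 difference between replicate 2 and replicate 1, on log2(FPKM + 1), for each of the 44 replication genes in each of the 8 groups, with 1 point per gene, a solid line at the median of the 44 and a dashed line at the median of all genes tested. The points of iASPP siRNA+nutlin lie mostly above 0 (41 of 44) and those of p53 siRNA+nutlin mostly below 0 (40 of 44), while the other medians lie between -0.12 and 0.08.

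With nutlin present, iASPP siRNA and CTR siRNA did not differ past the threshold. In iASPP siRNA+nutlin against CTR siRNA+nutlin, 0 of 44 passed in limma, where 0.506% of all genes rose and 0.263% fell. A total of 17 genes, all higher, reached an unadjusted p under 0.05, as did 1692 of all 10662 genes in either direction. The median was 0.54, against 0.07 over all genes. MCM5 was at 10.7 and 15.9 FPKM in iASPP siRNA+nutlin, against 5.18 and 5.44 FPKM in CTR siRNA+nutlin (1.16 ± 0.28, adjusted p = 0.0912). ORC6 was at 1.98 and 5.09 FPKM in iASPP siRNA+nutlin, against 1.30 and 0.366 FPKM in CTR siRNA+nutlin (1.27 ± 0.34, adjusted p = 0.115). The count was 2 without p53 siRNA+nutlin replicate 1 or 2 and 14 without iASPP siRNA+nutlin replicate 1. The median was 0.89 without iASPP siRNA+nutlin replicate 1 and 0.16 without iASPP siRNA+nutlin replicate 2. Without replicate 2 of all 3 spread pairs it was also 0.16. In each of these fits more of all genes tested passed than in the main fit.

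Comparing the nutlin effect between iASPP siRNA and CTR siRNA cells, the interaction passed in 3 of 44 genes, all positive, against 0.825% of all genes on the positive side and 0.197% on the negative side, and all 44 values were above 0. The median was 1.13 over the 44 genes and 0.16 over all genes. An unadjusted p under 0.05 was reached by 29 of the 44 and by 2008 of all 10662 genes. Without iASPP siRNA+nutlin replicate 2 the median was 0.73 and 42 values were above 0. The 3 were RPA3 (2.16 ± 0.38, adjusted p = 0.0315), CDC45 (2.00 ± 0.33, adjusted p = 0.0282) and DBF4 (1.43 ± 0.27, adjusted p = 0.0379). Under median-of-ratios scaling 2 genes passed, and DBF4 was at 1.26 (adjusted p = 0.0533). These are also genes with a low iASPP siRNA level without nutlin, and that level enters the interaction. POLE2 (2.11 ± 0.47) and RFC5 (1.72 ± 0.36) narrowly missed, at adjusted p = 0.0553 and 0.0501. This count was 0 without either CTR siRNA, iASPP siRNA, p53+iASPP siRNA or CTR siRNA+nutlin library and 1 without either p53 siRNA library. It was higher without either p53 siRNA+nutlin library, and highest without iASPP siRNA+nutlin replicate 1. Calls over all genes tested moved the same way in these fits.

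With both siRNAs and nutlin, replication genes stood near the level of p53 siRNA+nutlin. In p53+iASPP siRNA+nutlin against iASPP siRNA+nutlin, 38 of 44 rose and 0 fell, where 10.8% of all genes rose and 4.82% fell, and 32 rose by at least 2-fold. The libraries with both siRNAs were the higher ones in 41 genes, against 30.8% of all genes. The median was 1.45, against 0.09 over all genes. PRIM1 was at 43.3 and 42.4 FPKM in p53+iASPP siRNA+nutlin, against 3.03 and 10.7 FPKM in iASPP siRNA+nutlin (2.68 ± 0.41, adjusted p = 0.00215). RFC4 was at 74.7 and 58.7 FPKM in p53+iASPP siRNA+nutlin, against 5.12 and 17.4 FPKM in iASPP siRNA+nutlin (2.66 ± 0.38, adjusted p = 0.00133). GINS2 was at 16.2 and 12.5 FPKM in p53+iASPP siRNA+nutlin, against 0.878 and 2.29 FPKM in iASPP siRNA+nutlin (2.62 ± 0.29, adjusted p = 0.000507). No library of one group reached the other in these genes. CDC6, MCM7 and MCM2 rose by 2.58 ± 0.30, 2.38 ± 0.42 and 2.31 ± 0.36. Not past the threshold were PCNA (-0.21 ± 0.13), ORC4 (-0.27 ± 0.29), ORC2 (0.18 ± 0.14), ORC5 (0.45 ± 0.21), LIG1 (0.68 ± 0.23, adjusted p = 0.0702) and POLA2 (1.37 ± 0.43, adjusted p = 0.0539). Fewer of the 44, and of all genes tested, passed without iASPP siRNA+nutlin replicate 1, where the median over the 44 was 1.19.

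Against p53 siRNA+nutlin, p53+iASPP siRNA+nutlin called 0 of 44 genes in limma, where 0% of all genes rose and 0.00938% fell. An unadjusted p under 0.05 was found in 0 of the 44 and in 495 of all 10662 genes. The median was 0.08, against -0.02 over all genes, with values from -0.41 (POLE2) to 0.45 (POLD3). The median turned with single libraries: it was 0.36, with 40 of 44 values above 0, without p53 siRNA+nutlin replicate 1, and -0.18, with 5 above 0, without p53 siRNA+nutlin replicate 2. Nutlin in p53+iASPP siRNA cells called 0 of 44 genes, where 0% of all genes rose and 0% fell. There 5 genes, all lower with nutlin, had an unadjusted p under 0.05, against 753 of all 10662 genes. The median was -0.35 and MCM5 had the lowest value, -0.79. The median gene stood at 82.8% of CTR siRNA in p53+iASPP siRNA+nutlin and at 81.8% in p53 siRNA+nutlin. The replicates of both nutlin groups are spread pairs.

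**Figure D5:**
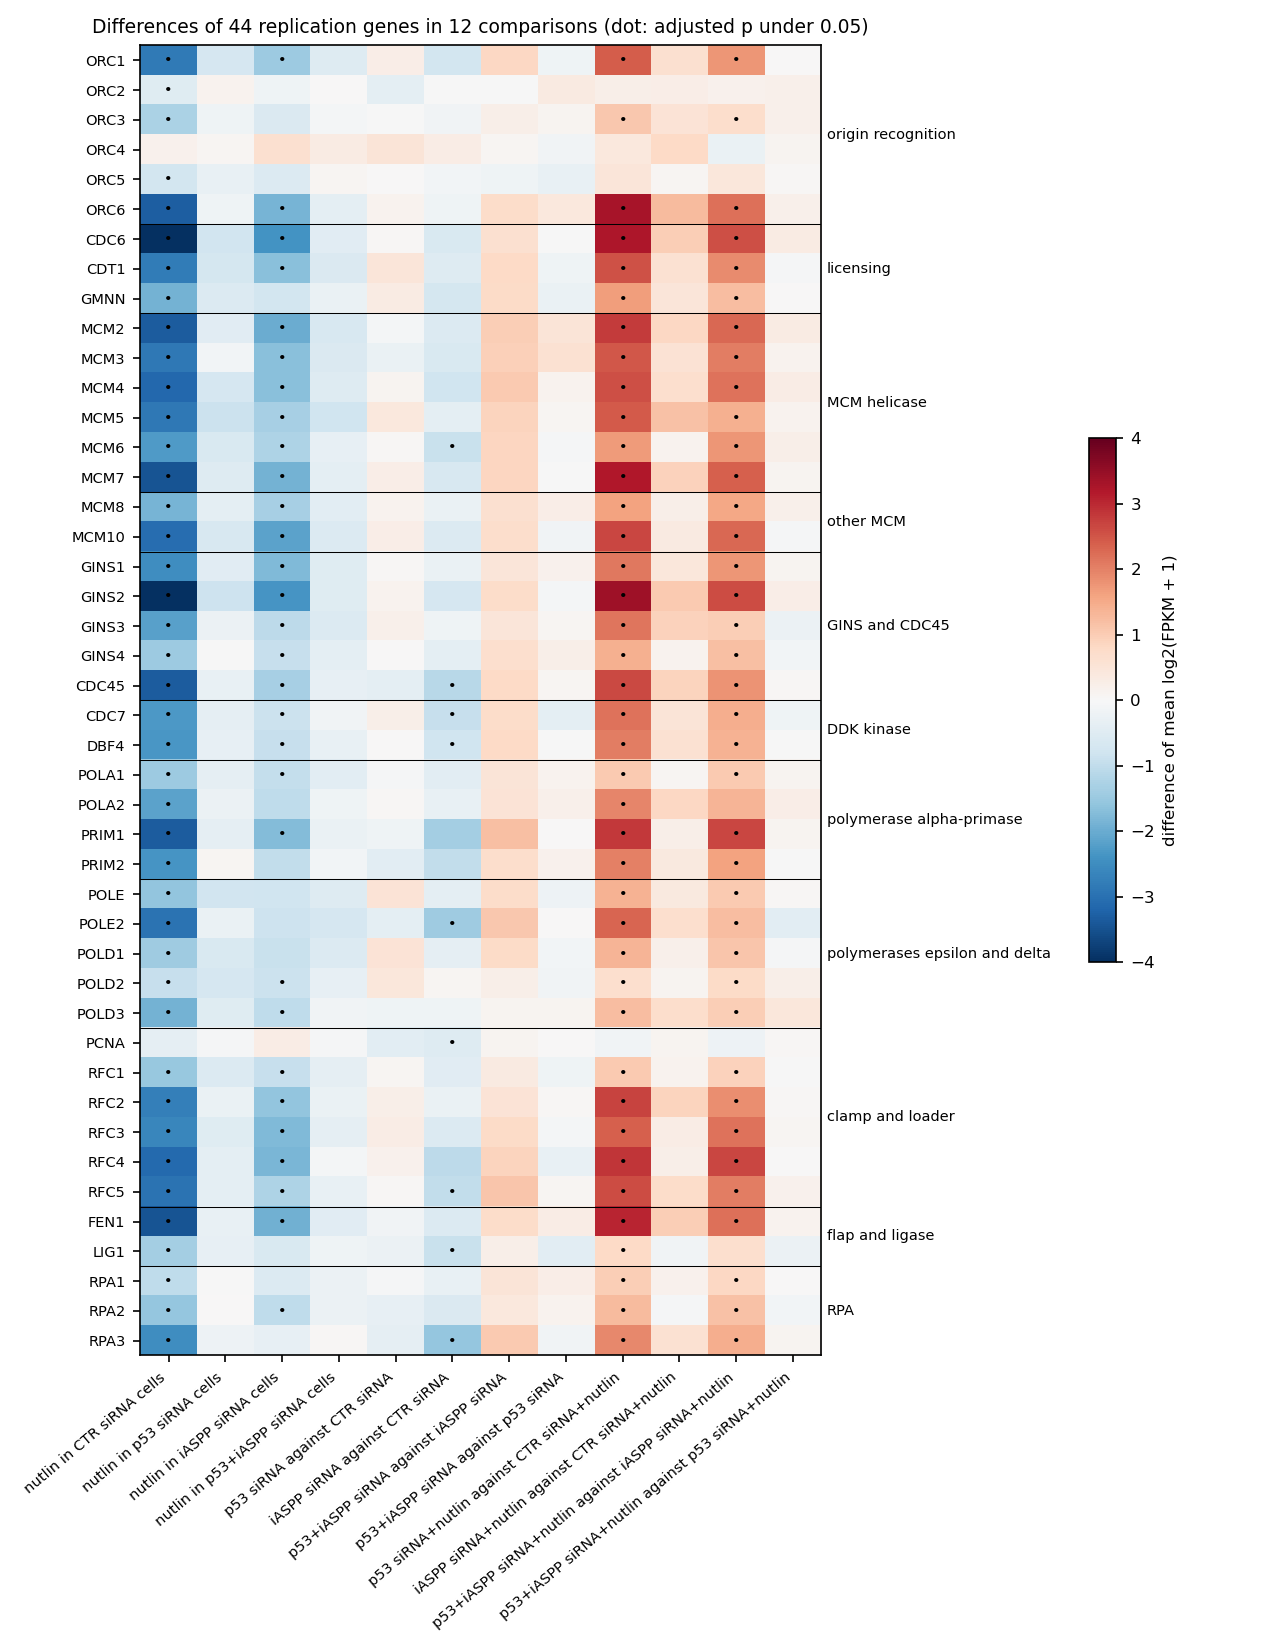
Colour gives the difference of mean log2(FPKM + 1) for each of the 44 genes (rows, by role) in 12 comparisons (columns), with colours ending at -4 and 4 and a dot where limma's adjusted p was under 0.05. Dots fill most of the columns for nutlin in CTR siRNA cells (42), p53 siRNA+nutlin (40) and p53+iASPP siRNA+nutlin against iASPP siRNA+nutlin (38), while ORC4 has none and PCNA has 1, in iASPP siRNA against CTR siRNA.

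Across all 8 groups, PCNA had the highest mean level of the 44 genes in every group, between 194 and 278 FPKM. Its highest mean was in CTR siRNA (278 FPKM), followed by iASPP siRNA+nutlin (239 FPKM) and CTR siRNA+nutlin (218 FPKM), and the lowest in iASPP siRNA (194 FPKM). ORC4 was highest in iASPP siRNA+nutlin (7.93 FPKM) and lowest in CTR siRNA (3.75 FPKM), but none of its comparisons described above passed. In the origin recognition complex the ratio of the highest to the lowest subunit level was 48.4 in CTR siRNA+nutlin and 11.9 in iASPP siRNA+nutlin, and between 3.33 and 5.02 in the 6 other groups. The summed level of the MCM2 to MCM7 ring was 273 FPKM in p53+iASPP siRNA+nutlin, 396 in p53+iASPP siRNA, 67.1 in iASPP siRNA+nutlin, 205 in iASPP siRNA, 249 in p53 siRNA+nutlin, 347 in p53 siRNA, 33.6 in CTR siRNA+nutlin and 319 in CTR siRNA. MCM7 was the most abundant ring subunit in all 8 groups, and MCM6 the least abundant in 7 of them, with MCM2 lowest in CTR siRNA+nutlin.

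A list of 33 other replication genes, such as chromatin assembly factors, topoisomerases, further polymerase subunits and alternative clamp loaders, gave 32 that were tested. Nutlin in CTR siRNA cells lowered 28 of these, 1 rose and 3 did not pass, where 21.0% of all genes fell and 5.87% rose. Their median was -1.58, against -0.20 over all genes. DSCC1, a subunit of the alternative loader for cohesion, was at 1.20 and 0.783 FPKM in CTR siRNA+nutlin, against 18.6 and 22.0 FPKM in CTR siRNA. TOP2A, the topoisomerase that untangles copied DNA, was at 0.659 and 0.465 FPKM in CTR siRNA+nutlin, against 15.2 and 14.6 FPKM in CTR siRNA. CHAF1A, a histone chaperone that acts at PCNA, was at 0.961 and 0.984 FPKM in CTR siRNA+nutlin, against 15.7 and 15.9 FPKM in CTR siRNA. These fell by 3.42, 3.35 and 3.09 on the log2 scale. PCLAF, the PCNA-binding factor, fell by 3.24. RNASEH2C, MCM9 and LRWD1 did not pass, at -0.70, -0.43 and -0.18. The gene that rose was POLD4, the small subunit of polymerase delta, by 1.13, at 63.7 and 46.0 FPKM in CTR siRNA+nutlin, against 22.0 and 26.5 FPKM in CTR siRNA. POLD4 fell by 1.42 in p53 siRNA+nutlin against CTR siRNA+nutlin, where 27 of the 32 and 17.2% of all genes rose. In p53+iASPP siRNA+nutlin against iASPP siRNA+nutlin 23 rose, where 10.8% of all genes did. In iASPP siRNA cells 14 fell with nutlin, where 3.90% of all genes did. In iASPP siRNA against CTR siRNA 4 fell, namely DNA2, MTBP, WDHD1 and CHAF1B, where 5.11% of all genes did.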

How the data were processed

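The data are mRNA sequencing of HCT116 cells, 16 libraries in 8 groups of 2, grouped by the sample titles. The authors deposited FPKM per gene, and these were analysed with no further scaling. The submitters' processing notes name edgeR, without a version, and hg38 (GRCh38). Aligner, counting program and annotation: not given in the sources used here. Without raw counts the depth in reads is unknown, and the depth of one replicate relative to the other was taken from the steps of values under 1 FPKM.

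Log2(FPKM + 1) values were fitted with limma 3.58.1 (R 4.3.3), using its moderated test with a trend on intensity. Genes averaging at least 1 FPKM were tested, 10662 of 20271. All 8 groups entered one fit with 8 residual and 3.15 prior degrees of freedom. The threshold was a Benjamini-Hochberg adjusted p under 0.05 within each of 12 comparisons and 3 interactions. Errors after ± are standard errors for log2 differences and SD for FPKM. A fold change on this scale understates the change of low genes. The smallest exact p of 2 against 2 libraries is 0.333, so exact tests were not used. The procedure was tested on simulated data in which each gene had the same spread in all 8 groups. That test cannot speak to groups whose spread differs, as it does here.

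Genes were ordered by role. From each role the members with the lowest and the highest nutlin difference in CTR siRNA cells were given library by library, with up to 6 largest changes in the other comparisons and the members that missed the threshold where most passed. The genes and lists were chosen with earlier results of these data known. The mRNA of p53 itself is not reported here. Gene positions and exon overlaps are from GENCODE release 29 and promoters from RefSeq (GRCh38.p14). Alternatives were another pseudocount, no filter on low values, median-of-ratios scaling, a replicate block, array weights, averaged close pairs and left-out libraries.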

Additional observations from a re-analysis of the deposited data

Results flagged for a closer look

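Nutlin differences were set apart between siRNA backgrounds by a test of the difference itself. Between p53 siRNA and CTR siRNA cells that difference passed in 35 of the 44 replication genes (limma, adjusted p under 0.05), and every one of the 35 was positive. The largest were GINS2 at 3.25, CDC6 at 3.20, FEN1 at 3.18, ORC6 at 3.14, CDC45 at 3.03 and PRIM1 at 2.98 on the log2 scale. Between iASPP siRNA and CTR siRNA cells it passed in 3 genes, RPA3 at 2.16, CDC45 at 2.00 and DBF4 at 1.43, of which DBF4 missed the threshold under median-of-ratios scaling (1.26, adjusted p = 0.0533). Both tests use the same CTR siRNA libraries.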

How the results depend on the processing

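Averaging the close pairs gave 0 calls in all 15 comparisons, where the main counts were 42 for nutlin in CTR siRNA cells, 40 for p53 siRNA+nutlin, 38 for p53+iASPP siRNA+nutlin against iASPP siRNA+nutlin, 35 for the nutlin by p53 interaction, 30 for nutlin in iASPP siRNA cells, 9 for iASPP siRNA and 3 for the nutlin by iASPP interaction. This fit has 3 residual degrees of freedom. Array weights gave 16 for nutlin in iASPP siRNA cells, 26 for iASPP siRNA, 33 for p53+iASPP siRNA against iASPP siRNA, 25 for p53+iASPP siRNA+nutlin against iASPP siRNA+nutlin, 7 for the nutlin by iASPP interaction, 12 for the p53 by iASPP interaction and 1 for p53 siRNA. Over all genes they gave 219, 3271, 2271, 493, 206, 1107 and 395 in the same order. The main fit gave 555, 838, 104, 1662, 109, 3 and 4 over all genes. Without replicate 2 of all 3 spread pairs the counts were 27 for iASPP siRNA, 32 for p53+iASPP siRNA against iASPP siRNA, 5 for p53 siRNA, 4 for p53+iASPP siRNA against p53 siRNA, 7 for iASPP siRNA+nutlin, 19 for the nutlin by iASPP and 17 for the p53 by iASPP interaction. With no filter on low values, nutlin in iASPP siRNA cells gave 16, iASPP siRNA 2 and the nutlin by iASPP interaction 1. Over all 17696 genes of that fit these comparisons gave 306, 563 and 65 calls. The main fit gave 555, 838 and 109 of 10662. A pseudocount of 0.1 gave 3 for iASPP siRNA+nutlin, with 114 calls over all genes against 82 in the main fit. Without replicate 2 of all 3 spread pairs, more of all genes tested passed too in each comparison given for that fit. The causes were not tested.

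Leaving out 1 library at a time gave 39 to 43 calls for nutlin in CTR siRNA cells, 37 to 40 for p53 siRNA+nutlin, 25 to 39 for p53+iASPP siRNA+nutlin against iASPP siRNA+nutlin, 20 to 37 for the nutlin by p53 interaction, 0 to 36 for nutlin in iASPP siRNA cells, 0 to 24 for the nutlin by iASPP interaction, 0 to 15 for p53+iASPP siRNA against iASPP siRNA, 0 to 14 for iASPP siRNA and for iASPP siRNA+nutlin, 0 to 8 for nutlin in p53 siRNA cells and 0 to 1 for the p53 by iASPP interaction. A lone library is taken to vary like the other groups. Calls over all genes tested moved widely in these fits as well, so the ranges are not particular to the replication genes.

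With the replicate number as a block the counts were 42 for nutlin in CTR siRNA cells, 40 for p53 siRNA+nutlin, 35 for the nutlin by p53 interaction, 27 for nutlin in iASPP siRNA cells, 8 for iASPP siRNA and 2 for the nutlin by iASPP interaction. Over all genes these were 2861, 2414, 1049, 462, 875 and 93 in the same order. The main fit gave 2861, 2397, 1040, 555, 838 and 109 over all genes. Replicate numbers share nothing in the labels. Same-numbered deviations correlated above 0.1 in 3 of 28 pairs of groups (median 0.0234). In all 8 groups, however, the best correlate had the same number.

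Of 2093 values of single genes under alternatives, 8 changed sign. ORC4 under nutlin in CTR siRNA cells ran from -0.24 to 0.56 when single libraries were left out, negative without CTR siRNA replicate 1 or CTR siRNA+nutlin replicate 2 (-0.02). Its nutlin by p53 interaction ran from -0.50 to 0.30, positive without those libraries, p53 siRNA replicate 2 (0.21) or p53 siRNA+nutlin replicate 1 (0.08). The POLD2 interaction ran from -0.088 without p53 siRNA+nutlin replicate 1 to 0.55 without replicate 2. RPA3 under nutlin in iASPP siRNA cells ran from -0.68 without iASPP siRNA+nutlin replicate 2 to 0.016 without replicate 1. A call was lost in 199 values, 61 of them with close pairs averaged and 117 without a single library, and gained in 49.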
